A study of Mus musculus with 80 samples.

Results

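The 8 genes described here encode the enzymes that build triglyceride in liver together with the 3 lipins, and they were chosen by symbol: Gpam, Agpat2, Lpin1, Lpin2, Lpin3, Mogat1, Dgat1 and Dgat2. They are 8 of the 78275 genes listed in a gene count table of mouse liver, and all 8 were among the 21187 genes with enough counts to be tested. Livers came from C57BL/6J mice, 8 to 12 weeks old, kept on chow under a light and dark cycle for 10 days and then in constant darkness. One group, control, ate freely throughout, and the other, fasted, lost its food at circadian time (CT) 10 and was not fed again. One liver was taken per mouse every 4 h from CT8 to CT44, from 2 males and 2 females per group and time, which gave 80 libraries, 40 control and 40 fasted. At CT8 both groups still had food, so the fasted livers at that time are a second fed group. Fasting lasted 2 h at CT12 and 34 h at CT44. Every mouse was a wild-type animal of 1 strain, no allele was changed and no drug was given. Time of day and hours without food advance together in the fasted mice and cannot be told apart within that group.

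Triglyceride is built by adding fatty acids, step by step, to glycerol 3-phosphate on the membranes of the endoplasmic reticulum and mitochondria. GPAM, the mitochondrial glycerol 3-phosphate acyltransferase, adds the first fatty acid, AGPAT2 adds the next to give phosphatidic acid, and the lipins remove the phosphate to give diacylglycerol. DGAT1 and DGAT2 add the last fatty acid, and MOGAT1 makes diacylglycerol by another route, from monoacylglycerol. In liver the same pathway stores dietary carbohydrate as fat in the fed state and re-esterifies fatty acids that arrive from adipose tissue in the fasted state. Lipin-1 also enters the nucleus, where it is known as a coactivator of PPARalpha with PGC-1alpha, so a lipin transcript is linked both to lipid synthesis and to fatty acid oxidation.

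Levels are given as CPM, a gene's counts scaled to a common library size, and differences as log2 of fasted over control from edgeR's quasi-likelihood test, with the standard error (SE) and a Benjamini-Hochberg adjusted p over all tested genes. A gene is said to rise or fall where that p was below 0.05. In 40 libraries the title and another label gave different sexes and in 40 different treatments. Titles were followed because they match the table columns. A check of the sex labels by sex-linked genes is not given here. Library totals ran from 25534901 to 59927771 counts, with a median of 42303883, and the control CT8 female 2 library had both the lowest total and 31.3% of its counts in ribosomal RNA, against a median of 0.101% over the 80 libraries. Fgf21, a fasting-induced hepatokine, rose by 3.95 (SE 0.25, adjusted p = 3.56e-18) and Srebf1, the insulin-driven regulator of fatty acid synthesis, fell by 3.13 (SE 0.10, adjusted p = 1.9e-29), which checks the treatment labels. All 6 hepatocyte markers were present, and their summed level ran from 63349 to 113482 CPM in control and from 79623 to 134545 CPM in fasted livers. Of 8 adipocyte markers, Lep, Plin1 and Retn were at 0 in 55 to 77 of the 80 libraries, and the summed level was 3.21 to 7.75 CPM in control and 3.83 to 13.5 CPM in fasted livers, with 1 of the 3 tested markers, Fabp4, higher. Markers of Kupffer cells fell for 5 of 6 (summed 135 to 469 against 97.3 to 305 CPM), and markers of cholangiocytes for 5 of 6 (24.7 to 66.3 against 6.78 to 50.7 CPM). Their part in the results below was not tested, and in whole liver fewer cells of a type and less RNA per cell cannot be told apart. The fasted CT40 female 2 library lay far from the other 3 of its group in several of the 8 genes, and results that rest on it are also given without it.

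All 8 genes changed under fasting when the 9 times from CT12 to CT44 were averaged, 5 upwards and 3 downwards. Over all genes, 62.5% passed the same test, 29.5% upwards and 32.9% downwards, so a passed test by itself does not set a gene apart in these livers. The median log2 difference was 0.48 for the 8 genes and -0.02 for all tested genes. Lpin1 rose most, by 2.31 (SE 0.18, adjusted p = 1.97e-15), followed by Lpin2 at 1.55 (SE 0.07, adjusted p = 1.58e-23) and Mogat1 at 1.15 (SE 0.18, adjusted p = 2.28e-07). Dgat1 rose by 0.67 and Lpin3 by 0.30. Dgat2 fell by 0.50, Gpam by 0.49 and Agpat2 by 0.27. Gpam, Agpat2 and Dgat2, the more abundant of the final pair, were thus lower, and the 3 lipins, Mogat1 and Dgat1 were higher. Gpam and Agpat2 are not the only isoforms of their steps, and the others went both ways, as given below.

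**Figure D1:**
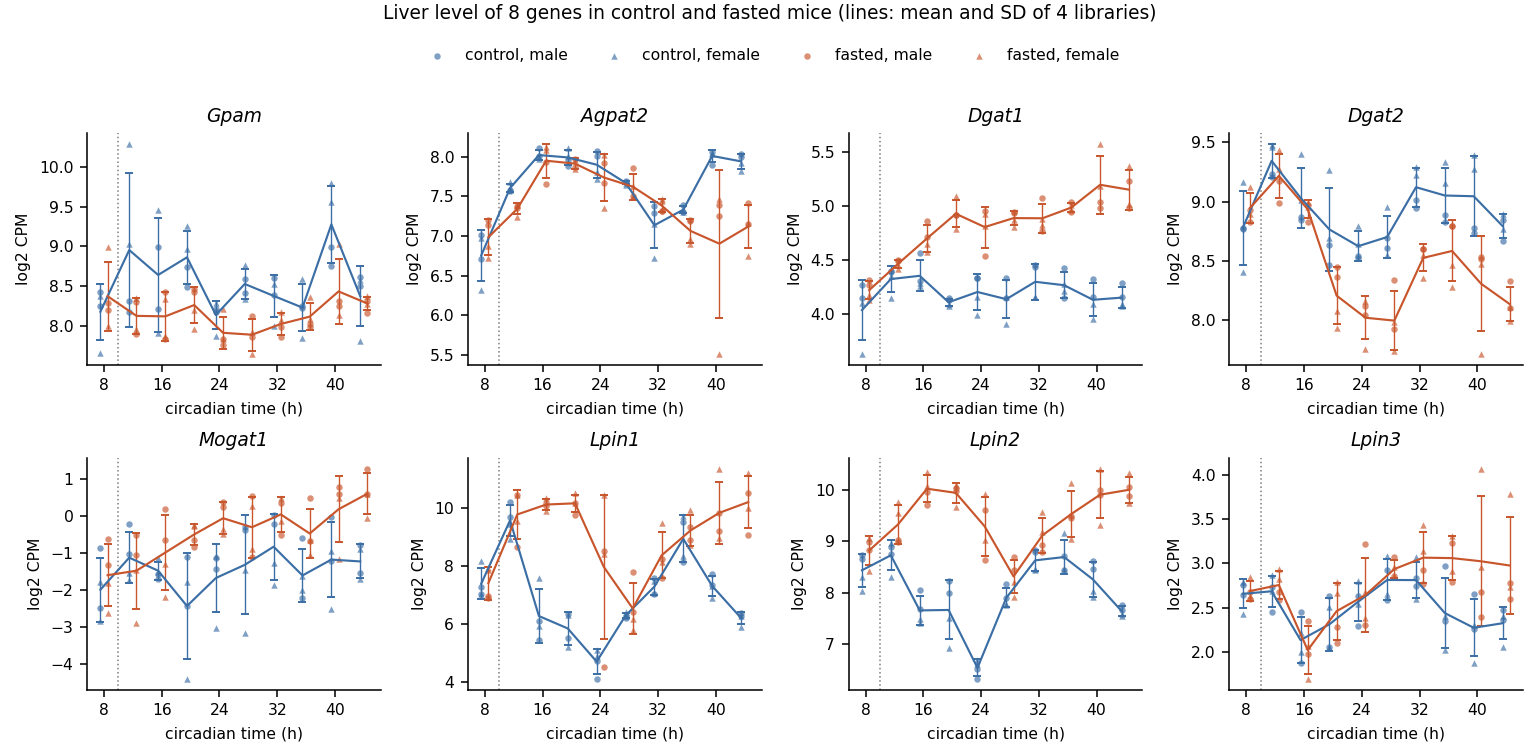
Each panel shows 1 gene as log2 CPM (vertical axis) against circadian time in hours (horizontal axis), with a point per library, circles or triangles by sex, and lines through the mean and SD of 4 libraries in control and fasted mice; the dotted line marks the removal of food at CT10. Dgat1 lies apart in the 2 groups from CT12 on, while Lpin1 and Lpin2 part at CT16 to CT24, meet at CT28 and part again by CT40.

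At CT8, when both groups still had food, 0 of 8 genes passed the edgeR test (1.33% of all genes did), 0 passed at an unadjusted p of 0.05 and 0 passed with limma-voom, with log2 differences between -0.03 and 0.40. Without female replicate 1, however, 4 genes passed at CT8, all higher in the group that was to be fasted: Gpam (0.62, adjusted p = 0.0128), Lpin2 (0.61, 0.0164), Agpat2 (0.43, 0.00695) and Dgat2 (0.41, 0.00497). That fit leaves the control CT8 female 2 library, rich in ribosomal RNA, as the only control female at CT8. After 2 h without food 1 of 8 passed, against 1.6% of all genes, and that gene was Gpam. At CT16 it was 3 of 8 against 23.4%, at CT20 6 of 8 against 36.6%, and at CT24 5 of 8 against 24.1%. During the following subjective day the count fell to 2 of 8 at CT28 (21% of all genes) and 2 of 8 at CT32 (17.7%), and these were Dgat1 and Dgat2 at both times. It was 4 of 8 at CT36 (26.8%), 8 of 8 at CT40 (39.9%) and 7 of 8 at CT44 (39.4%). Over the 72 combinations of gene and time, 38 passed. The effect changed across the 9 times for 5 of the 8 genes, against 33.7% of all genes, with adjusted p = 7.33e-10 for Lpin2, 1.17e-06 for Lpin1, 4.32e-06 for Dgat1, 0.00278 for Agpat2 and 0.0195 for Dgat2. Without male replicate 1 or 2 the call was lost for Agpat2 (0.272 and 0.418) and Dgat2 (0.563 and 0.448) and held for the other 3. For Lpin3 (0.0752), Mogat1 (0.278) and Gpam (0.336) a change across times did not pass.

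**Figure D2:**
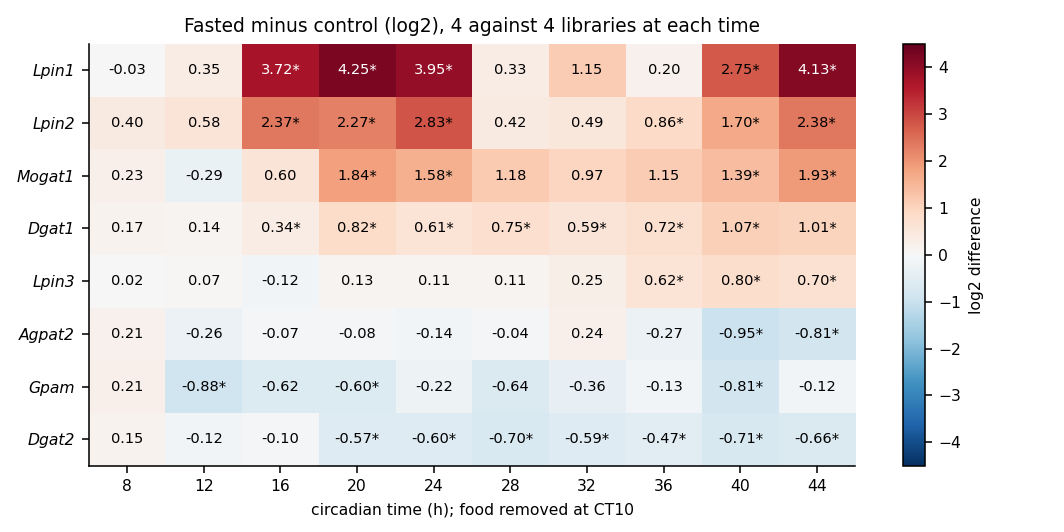
Rows are the 8 genes, columns are circadian times in hours, and the colour and printed value give fasted minus control on the log2 scale from 4 against 4 libraries, with passed tests marked. Lpin1 reaches 4.25 at CT20 and 4.13 at CT44 with 0.33 at CT28 between them, whereas Dgat1 and Dgat2 keep one sign at each time from CT16.

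Lpin1, which encodes lipin-1, was the member that moved most, both over the day and under fasting. In control livers at CT12 the 4 libraries held 838, 1182, 496 and 710 CPM (males 1 and 2, then females 1 and 2), and at CT24 they held 26.6, 17.2, 34.3 and 30.3 CPM. The highest control group mean was 29.7 times the lowest. Fed livers therefore showed a high peak near the end of the subjective day and a deep trough around the next subjective dawn. In fasted livers the level stayed high through the night: the 4 libraries held 1175, 1078, 1300 and 965 CPM at CT16 against 44.3, 70.2, 196 and 61.4 CPM in control. At CT20 they held 883, 1166, 1476 and 1175 CPM against 45.9, 82.6, 37.6 and 79.9 CPM, a difference of 4.25 (SE 0.59, adjusted p = 1.23e-07) and the groups lay far apart. At CT24 the fasted libraries spread from 22.9 to 1407 CPM, with the lowest inside the control range, so the difference of 3.95 there came with overlap. At CT28 the difference did not pass, and fasted livers held 85.2, 223, 72.4 and 56.0 CPM against 77.5, 75.3, 85.3 and 78.4 CPM (log2 difference 0.33, SE 0.52, adjusted p = 0.726).

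The control level was high again at CT36, while the fasted group mean climbed from 377 CPM at CT32 to 1362 CPM at CT44, the last time sampled. At CT36 control livers held 286, 741, 328 and 861 CPM of Lpin1 and fasted livers 481, 656, 983 and 430 CPM, and the groups overlapped (log2 difference 0.20, SE 0.51, adjusted p = 0.819). At CT44 control livers had dropped to 84.4, 78.0, 78.0 and 60.5 CPM while fasted livers held 547, 1482, 2379 and 1040 CPM, a rise of 4.13 (SE 0.58, adjusted p = 1.86e-07). At CT40 the rise was 2.75 (SE 0.55, adjusted p = 7.01e-05), with 2645 CPM in the fasted female 2 library and 499 to 907 CPM in the other 3, and it was 1.93 (adjusted p = 0.00488) without that library. Over all times after CT8, 8 of 36 fasted libraries lay above the highest control library, since the fed peak at CT12 reached well into the fasted range.

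Lpin2 encodes lipin-2, the lipin usually described as the main phosphatidic acid phosphatase of liver, and its course was like that of Lpin1 with smaller swings. Control libraries ran from 79.4 to 571 CPM with a median of 258, and fasted libraries from 242 to 1361 CPM with a median of 791. Of the 36 fasted libraries 25 lay above the highest control library. At CT24, the control trough, the control livers held 79.4, 91.7, 104 and 97.6 CPM and the fasted livers 776, 395, 961 and 518 CPM, which did not overlap. The difference there was 2.83 (SE 0.22, adjusted p = 1.98e-13). At CT28 fasted livers held 345, 414, 242 and 296 CPM against 286, 238, 219 and 216 CPM in control, and the groups overlapped with a difference that did not pass (0.42, SE 0.21, adjusted p = 0.151). At CT36 the rise of 0.86 (SE 0.21, adjusted p = 0.00148) came with overlap, and it was 0.39 (adjusted p = 0.0954) without female replicate 1 and 0.77 (adjusted p = 0.104) without male replicate 1. At CT44 the fasted level was back at 852 to 1288 CPM against 186 to 216 CPM, a rise of 2.38 (SE 0.22, adjusted p = 5.47e-12). The groups did not overlap at 6 of the 9 times for Lpin2 and at 5 of 9 for Lpin1; over all genes the share without overlap was 5.96% at CT12, 18.9% at CT16, 29.8% at CT20, 19.5% at CT24, 18.5% at CT28, 18.5% at CT32, 21.5% at CT36, 26.7% at CT40 and 30.1% at CT44.

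Lpin3 was the least abundant lipin in these livers, and its rises passed only from CT36 on. A change of its fasting effect across times did not pass (edgeR adjusted p = 0.0752), so a late response was not shown. Control libraries ran from 3.60 to 8.42 CPM and fasted libraries from 3.17 to 16.8 CPM, with medians of 5.55 and 6.84. From CT12 to CT32 no difference passed, with values between -0.12 and 0.25. Rises of 0.62, 0.80 and 0.70 were measured at CT36, CT40 and CT44. At CT36 the call was lost without female replicate 2 (0.42, adjusted p = 0.186) and without male replicate 2 (0.36, adjusted p = 0.439). At CT40 the fasted livers held 5.20, 6.34, 7.72 and 16.8 CPM against 6.24, 4.73, 3.60 and 4.89 CPM in control, and without the library at 16.8 CPM the call was lost (adjusted p = 0.0805). At CT44 the fasted female 1 library held 13.8 CPM beside 6.02 to 6.82 CPM in the others, and leaving out female replicate 1 ended that call too (adjusted p = 0.33).

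Seen per kilobase of merged exon, so that genes of unequal length can be compared, the makeup of the 3 lipins shifted with time and food. In control livers Lpin2 made up a median of 62.4% of the summed lipin level and Lpin1 31.5%, and in fasted livers the medians were 47.3% and 51.6%. Lpin3 made up 4.47% and 1.20%. The summed lipin level had a median of 32.02 CPM per kb in control and 147 CPM per kb in fasted livers. The Lpin1 share in control livers was highest at CT12, with a median of 70.5% over 4 libraries, and stood at 25.0% at CT24. Under fasting it was 60.8% at CT20 and 24.1% at CT28. These shares use merged exon lengths of an earlier gene annotation, which for Lpin2 count stretches found only in non-coding transcripts. A shorter Lpin2 length would give Lpin2 a larger share and could reverse the fasted order of Lpin1 and Lpin2, which was not tested. The ranges of the 2 groups overlapped, from 15.7 to 76.8% and from 6.57 to 76.7% for Lpin1.

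Because Lpin1 and Lpin2 moved together, the 250 bases before their annotated starts are shown as RefSeq gives them for the GRCm38.p6 build, 5′ to 3′ on the gene's own strand, with matches to 4 short motifs in capitals. The motifs were CACGTG (the E-box of clock and lipogenic factors), TGACG (the core of the cAMP response element), AGGTCA (the core of nuclear receptor elements) and CCAAT, each sought on both strands. Of 32851 mouse promoters of the same length, 6.02% hold CACGTG, 17.8% TGACG, 14.0% AGGTCA and 33.8% CCAAT. For Lpin1 the window is chr12:16610967-16611216 on the minus strand, and for Lpin2 it is chr17:71183282-71183531 on the plus strand, before the first of its annotated starts.
Lpin1: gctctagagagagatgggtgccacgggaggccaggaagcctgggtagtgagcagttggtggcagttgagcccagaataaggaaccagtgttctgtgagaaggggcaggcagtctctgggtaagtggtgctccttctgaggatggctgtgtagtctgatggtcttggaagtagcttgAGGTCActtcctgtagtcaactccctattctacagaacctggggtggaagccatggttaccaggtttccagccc
Lpin2: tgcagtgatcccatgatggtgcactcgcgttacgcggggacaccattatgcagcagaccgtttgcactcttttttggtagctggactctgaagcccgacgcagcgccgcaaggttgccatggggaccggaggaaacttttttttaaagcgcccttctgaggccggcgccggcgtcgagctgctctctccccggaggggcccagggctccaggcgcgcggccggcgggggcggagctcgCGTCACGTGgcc
The Lpin1 window held AGGTCA, 74 bases before the start, and none of the other motifs. In the Lpin2 window CACGTG lay 9 bases before the start and overlapped TGACG on the opposite strand, 12 bases before it, so the run of capitals holds both. The 2 windows shared none of the 4 motifs. A match is a description of these letters, and whether any factor binds there was not measured.

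DGAT1 and DGAT2 catalyse the same last step and are unrelated in sequence, and their transcripts moved in opposite directions. Dgat1 ran from 15.0 to 23.7 CPM in control livers, with a median of 17.9, and from 21.4 to 47.8 CPM in fasted livers, with a median of 30.3. Of the 36 fasted libraries 31 lay above the highest control library. Counts of libraries beyond the control range were not taken over all genes. At each of the 9 times the 4 fasted libraries lay above the 4 control libraries. Over all genes the share without overlap ran from 5.96% at CT12 to 30.1% at CT44. The difference did not pass at CT12 (0.14, SE 0.09, adjusted p = 0.561) and passed at the other 8 times, from 0.34 at CT16 to 1.07 at CT40 (SE 0.09, adjusted p = 2.31e-12) and 1.01 at CT44. The call at CT16 was lost without male replicate 1 or 2 (adjusted p = 0.0599 and 0.107). At CT40 the fasted livers held 31.7, 32.9, 36.5 and 47.8 CPM against 17.8, 20.01, 15.5 and 17.1 CPM in control, and the rise was 0.98 without the fasted female 2 library. The control level was close to flat over the day, with the highest group mean 1.19 times the lowest, the narrowest range among the 8 genes.

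Dgat2 ran from 354 to 711 CPM in control livers, with a median of 470, and from 210 to 689 CPM in fasted livers, with a median of 340. Of the 36 fasted libraries 19 lay below the lowest control library. At CT12 and CT16 the groups overlapped, with differences of -0.12 and -0.10. From CT20 to CT44 they did not overlap at any of the 7 times, against 18.5 to 30.1% of all genes at each. At CT20 fasted livers held 349, 331, 245 and 271 CPM against 354, 398, 413 and 616 CPM in control, a fall of 0.57 (SE 0.13, adjusted p = 0.000384). The fall was largest at CT40, at 0.71 (SE 0.13, adjusted p = 1.59e-05), where the fasted female 2 library held 210 CPM beside 356 to 370 CPM in the others. Without that library the fall at CT40 was 0.53 (adjusted p = 0.00162). With male replicate 1 or male replicate 2 left out the call at CT40 held, while at each other time from CT20 at least 1 of these fits lost it (adjusted p from 0.0513 to 0.135, falls from 0.47 to 0.63).

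Mogat1, the monoacylglycerol acyltransferase known to be induced in fatty liver, was at the limit of detection. Control libraries held 0 to 47 counts (0 to 0.983 CPM, median 0.319) and fasted libraries 3 to 103 counts (0.0874 to 2.38 CPM, median 0.763). The 1 library without a read, control CT20 female 1, allows a level of up to 0.0646 CPM from 3 counts, for counting error only. The rise passed at CT20 (1.84, SE 0.57), CT24 (1.58, SE 0.52), CT40 (1.39, SE 0.50) and CT44 (1.93, SE 0.50, adjusted p = 0.00186). Leaving out 1 replicate at a time kept the call at CT44 and ended it at CT20 without female 1 or male 1 (adjusted p = 0.0947 and 0.157), at CT24 without female 2, male 1 or male 2 (0.131, 0.194 and 0.0984) and at CT40 without female 1 or male 1 (0.531 and 0.219). Without the fasted CT40 female 2 library alone, which held 0.405 CPM beside 1.37 to 1.68 CPM in the others, the rise at CT40 was 1.69 (adjusted p = 0.00959). At CT44 the fasted livers held 2.38, 1.48, 0.916 and 1.46 CPM against 0.538, 0.301, 0.493 and 0.260 CPM in control, and the groups did not overlap. Differences of similar size at CT28, CT32 and CT36 (0.97 to 1.18, SE 0.50 to 0.53) did not pass.

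Gpam, an enzyme of the entry step, was the only one of the 8 genes to pass the test at CT12. Control libraries ran from 225 to 1250 CPM with a median of 365, and fasted libraries from 201 to 523 CPM with a median of 282. At CT12, 2 h after food removal, control livers held 319, 291, 1250 and 524 CPM and fasted livers 239, 315, 326 and 251 CPM. The fall of 0.88 there (SE 0.24, adjusted p = 0.0478) rested on the control female 1 library, since without it the difference was -0.50 (adjusted p = 0.465). Falls also passed at CT20 (0.60, SE 0.24, adjusted p = 0.0461) and CT40 (0.81, SE 0.24, adjusted p = 0.00618). At CT40 control livers held 511, 431, 755 and 891 CPM and fasted livers 305, 319, 283 and 523 CPM, with 1 fasted library, female 2, inside the control range. Without that library the fall at CT40 was 1.05 (adjusted p = 0.00248). Both calls were lost without male replicate 1 or male replicate 2, with adjusted p = 0.206 and 0.348 at CT20 and 0.161 and 0.0829 at CT40. Averaged over the 9 times Gpam in fasted livers was 0.713 times the control level, and the difference was -0.44 without the control CT12 female 1 library.

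Agpat2, the acyltransferase whose loss causes lipodystrophy, kept its fed course for most of the fast. Control libraries ran from 105 to 278 CPM with a median of 225, and fasted libraries from 45.3 to 280 CPM with a median of 173. Between CT12 and CT36 no difference passed, with values from -0.27 to 0.24, although the 4 fasted libraries lay below the 4 control libraries at CT12 and at CT36. At CT40 fasted livers held 153, 168, 176 and 45.3 CPM against 238, 268, 263 and 265 CPM in control, a fall of 0.95 (SE 0.18, adjusted p = 2.87e-05), which was 0.60 (adjusted p = 0.000225) without the library at 45.3 CPM. At CT44 they held 171, 142, 107 and 143 CPM against 257, 261, 226 and 242 CPM, a fall of 0.81 (SE 0.18, adjusted p = 0.000274), which was 0.75 (adjusted p = 0.0658) without male replicate 2. During the previous night, at CT16 and CT20, fasted livers had held 202 to 280 CPM and control livers 236 to 278 CPM, with overlap at both times.

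The exon bin table asks whether parts of a gene changed by more or less than the whole. Of the 8 genes Gpam (adjusted p = 3e-21) and Lpin2 (adjusted p = 9.44e-08) passed, against 14.3% of 13889 genes tested, and the other 6 did not. In Gpam the change lay at the start of the gene. The bins that passed with the smallest p values were 34, by -0.95 relative to the rest of the gene (adjusted p = 9.56e-22), and 29, by 1.61 (adjusted p = 5.89e-20). These 2 relative changes are natural logs, not log2. Read by number against an earlier gene annotation (GENCODE M21, GRCm38), which divides Gpam into the same 35 bins, bins 33 to 35 are the upstream first exon and bin 29 is the first exon of a transcript that starts further into the gene, so the 2 mark alternative first exons. Bin 34 held a median of 93.5 counts in control and 25 in fasted libraries, and bin 29 held 7 and 28.5.

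In fasted livers the upstream first exon took a smaller and the downstream first exon a larger share of the gene than in control livers, and neither course was steady. Bins 33 to 35 together held 2.15 to 2.94% of the gene's bin counts in the 36 control libraries (median 2.50%) and 0.141 to 2.41% in the fasted libraries (median 1.34%). In control livers the group mean stayed between 2.33 and 2.59% at every time from CT8 to CT44, so this share showed little of the daily swing of the gene itself. In fasted livers it was 2.25% ± 0.239 (SD, n = 4) at CT8, 2.22% ± 0.147 at CT12, 1.52% ± 0.208 at CT16 and 0.891% ± 0.237 at CT20. It was 1.59% ± 0.133 at CT28 and 0.976% ± 0.408 at CT44, and from CT16 on the 4 fasted libraries lay below the 4 control libraries at every time. Bin 29 held 0 to 0.0785% in control (median 0.0260%) and 0.0196 to 0.341% in fasted libraries (median 0.154%), and the groups lay apart from CT24 on. Its fasted group mean was 0.130% at CT20, 0.218% at CT24 and 0.239% at CT32, the highest, and 0.134% at CT44. On its own scale, as log2, bin 29 rose by 1.81 (SE 0.18) while bin 34 fell by 1.88 (SE 0.11), so the downstream exon rose in a gene that fell as a whole. Gpam passed under each of the 10 alternative settings, with a largest adjusted p of 1.5e-05.

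**Figure D3:**
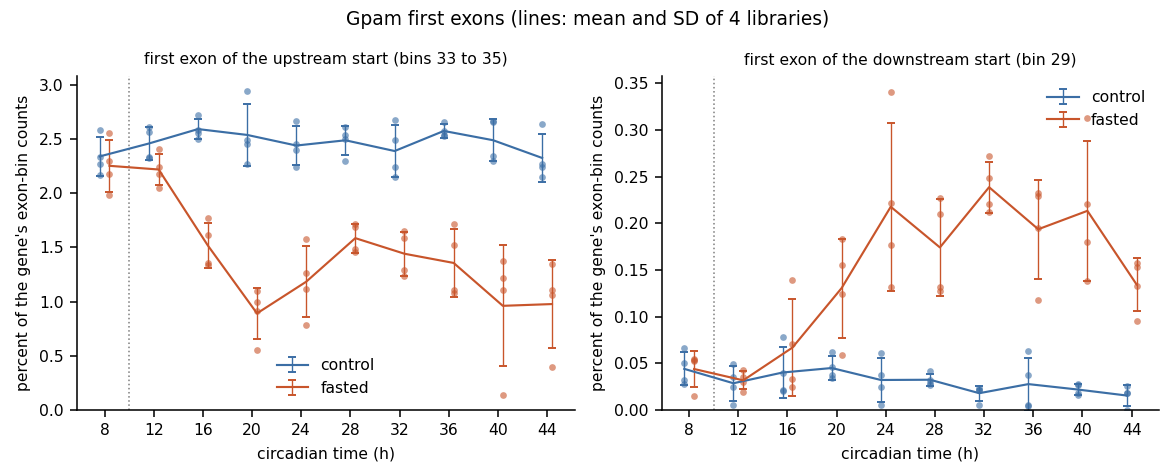
The 2 panels show the upstream (bins 33 to 35) and the downstream (bin 29) first exon of Gpam as a percent of the gene's exon-bin counts against circadian time in hours, with a point per library and lines through the mean and SD of 4 libraries per group. The upstream share stays at 2.33 to 2.59% in control livers and drops to 0.891% at CT20 in fasted livers, and the downstream share is higher in fasted livers from CT24.

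The sequences before the 2 Gpam starts are shown because the exons that follow them moved in opposite directions. They are RefSeq windows of GRCm38.p6 on the minus strand, chr19:55127239-55127488 for the upstream and chr19:55099478-55099727 for the downstream start, which RefSeq sets 27761 bases apart, written 5′ to 3′ with matches to the same 4 motifs in capitals.
Gpam upstream: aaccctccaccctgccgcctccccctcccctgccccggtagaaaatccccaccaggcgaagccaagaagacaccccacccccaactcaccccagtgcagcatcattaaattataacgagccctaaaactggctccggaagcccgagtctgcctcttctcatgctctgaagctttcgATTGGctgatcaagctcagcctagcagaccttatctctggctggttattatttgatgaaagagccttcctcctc
Gpam downstream: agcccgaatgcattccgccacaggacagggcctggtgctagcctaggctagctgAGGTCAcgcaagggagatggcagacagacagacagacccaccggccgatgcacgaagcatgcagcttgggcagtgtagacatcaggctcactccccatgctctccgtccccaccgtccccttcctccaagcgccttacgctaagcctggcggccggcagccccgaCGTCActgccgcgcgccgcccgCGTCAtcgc
The upstream window held CCAAT on the opposite strand, 74 bases before the start, and none of the other 3 motifs. The downstream window held AGGTCA 196 bases before the start and TGACG on the opposite strand at 31 and 9 bases before it. CACGTG was in neither window, and no motif was in both.

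In Lpin2 the 2 bins with the smallest p values were bins 5 and 13. As natural logs, they were higher relative to the rest of the gene by 0.58 (adjusted p = 1.87e-08) and 0.94 (adjusted p = 7.42e-08). They hold few counts, with medians of 21.5 in control and 91.5 in fasted libraries for bin 5 and 4 and 20.5 for bin 13. When every library had to hold at least 10 counts in a bin, Lpin2 no longer passed (adjusted p = 0.528). The position of these bins was not read from the older annotation, since bin length and bin count were unrelated in Lpin2 under the match by number. Of the 80 exon columns 3, all in fasted CT40, correlated best with the gene counts of another library of that group. Columns of fasted CT40 could not be tied with certainty to single libraries, so that group entered without sex. Which of the 2 sets of labels is right there was not tested. Gene results that name a fasted CT40 library or compare the sexes rest on the labels of the gene counts.

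A 24 h rhythm was fitted to control livers from CT8 to CT44 and to fasted livers from CT12 to CT44. The difference between the 2 rhythms was tested over CT12 to CT44. In control livers 6 of the 8 genes passed, against 41.8% of all genes. Lpin1 had the largest peak-to-trough difference, 3.92 on the log2 scale with a fitted peak at CT11.8, and Lpin2 had 1.60 with a peak at CT11.1. Dgat2 (0.58, CT12.6) peaked near the same time, Gpam (0.74, CT15.5) and Agpat2 (0.96, CT19.8) later in the night, and Lpin3 (0.59, CT5.7) in the subjective day. The Gpam rhythm (adjusted p = 0.0335) was lost without female replicate 2 (0.281), without male replicate 2 (0.0988) and with limma-voom (0.0722). Differences between the peak times of the genes were not tested. Dgat1 (adjusted p = 0.155) and Mogat1 (adjusted p = 0.719) did not pass.

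Under fasting 5 of the 8 genes passed with a linear trend in the model, against 47.1% of all genes. Lpin1 (peak-to-trough 2.86) and Lpin2 (1.41) then peaked at CT16.8 and CT17.3. Dgat2 kept its fitted peak at CT12.6 with a difference of 0.92. Gpam (0.43, CT16.4) and Agpat2 (0.48, CT23.5) also passed with all libraries. The Gpam call was lost without female replicate 2 or male replicate 1 (adjusted p = 0.103 and 0.0712), and the Agpat2 call without female replicate 2, male replicate 1 or male replicate 2 (0.0539, 0.175 and 0.139). The difference between the fasted and control rhythm passed for 4 of 8 genes, against 21.6% of all genes: Lpin2 (adjusted p = 9.77e-09), Lpin1 (2.11e-07), Agpat2 (0.0242) and Dgat1 (0.0337). The calls for Agpat2 and Dgat1 were lost whichever replicate was left out, Dgat1 did not pass with limma-voom (adjusted p = 0.0518), and sampling covered less than 2 full cycles.

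The sexes differed in the control level of 4 genes, against 39.2% of all genes. Control males held more Mogat1 (log2 female minus male -0.88, SE 0.25, adjusted p = 0.00419), Lpin2 (-0.28, SE 0.09) and Dgat1 (-0.18, SE 0.04), and control females held more Dgat2 (0.28, SE 0.06, adjusted p = 0.000125). Without male replicate 1 or 2 the calls were lost for Mogat1 (adjusted p = 0.137 and 0.0506) and Lpin2 (0.144 and 0.118), and those for Dgat1 and Dgat2 held. Median control Dgat2 was 447 CPM in 18 males and 583 CPM in 18 females, and the ranges overlapped.

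The fasting effect differed by sex for 3 of the 8 genes, against 12.4% of all genes. Dgat2 fell by 0.27 in males and by 0.74 in females, a difference of -0.47 (SE 0.09, adjusted p = 0.000231). Fasted males held 243 to 578 CPM (median 368) and fasted females 210 to 689 CPM (median 298), so the sex that held more Dgat2 when fed had the lower median when fasted. Lpin2 rose by 1.33 in males and 1.76 in females (difference 0.43, SE 0.14, adjusted p = 0.032), and Dgat1 by 0.58 and 0.77 (difference 0.19, SE 0.06, adjusted p = 0.0386). These calls depended on which libraries were included. They also rest on the sex labels of fasted CT40, where 3 exon columns matched another library of that group best. Without the fasted CT40 female 2 library Dgat2 alone passed (adjusted p = 0.000248), with 0.0666 for Lpin2 and 0.065 for Dgat1, and without male replicate 1 or male replicate 2 the 3 genes did not pass (adjusted p = 0.11 and 0.0605 for Dgat2, 0.242 and 0.336 for Lpin2, 0.223 and 0.226 for Dgat1). Lpin3 rose in females (0.46, SE 0.10) and was 0.13 in males (SE 0.10, adjusted p = 0.305), and that difference between the sexes did not pass (adjusted p = 0.104).

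**Figure D4:**
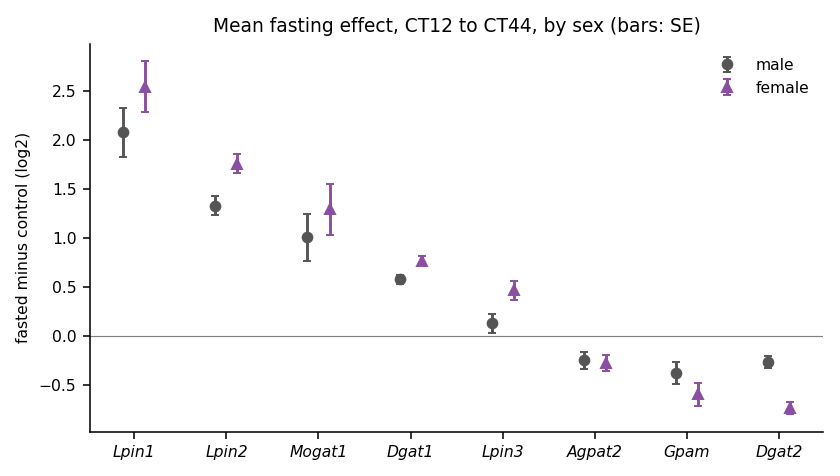
Fasted minus control on the log2 scale, as the mean of CT12 to CT44 (vertical axis), is shown for each of the 8 genes in males (circles) and females (triangles), with bars for the SE. The Dgat2 value is -0.27 in males and -0.74 in females, and Agpat2 is -0.25 and -0.28.

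Around the 8 genes, other enzymes of the same steps moved in both directions, as did all genes, of which 29.5% rose and 32.9% fell with a median of -0.02. Of 13 tested acyltransferases and genes of glycerol 3-phosphate supply, 7 rose and 3 fell, with a median of 0.16. Gpat3, the glycerol 3-phosphate acyltransferase of the endoplasmic reticulum, rose by 2.21 (SE 0.11, from a mean of 4.93 to 21.5 CPM), and Agpat3 rose by 0.89 (SE 0.03, from 221 to 415 CPM). Mogat2 fell by 1.73 (SE 0.25) at a level under 1 CPM, and Gpat2 fell by 0.71 (SE 0.10). Isoforms of the steps of Gpam and Agpat2 thus went both ways, since Gpat4 rose (0.71, SE 0.05), Agpat1 fell (-0.14, SE 0.05, adjusted p = 0.0193), and Agpat4 (0.14, SE 0.08) and Agpat5 (-0.05, SE 0.04) did not pass. Of 16 genes that use phosphatidic acid or diacylglycerol for phospholipid, 4 rose, among them Chkb (0.85) and Chpt1 (0.64), and 8 fell, among them Pcyt1b (-0.62) and Chka (-0.57), with a median of -0.11. Of 11 tested diacylglycerol kinases and plasma membrane phosphatases, 6 rose and 3 fell, with a median of 0.26. Dgkh (1.55) and Dgka (0.46), kinases that turn diacylglycerol back into phosphatidic acid, rose most, and Dgkz (-0.24) and Dgkq (-0.12) fell.

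Of the 17 regulators of the pathway tested as first listed, 7 were higher and 7 lower, with a median of -0.03. Srebf1 fell by 3.13, Insig1, a target and brake of the SREBP pathway, by 2.69 (SE 0.08), and Mlxipl, the carbohydrate-responsive factor ChREBP, by 1.22 (SE 0.06). Insig2 rose by 1.82 (SE 0.07) and Creb3l3, a fasting-induced factor of the liver, by 0.78 (SE 0.04). Ctdnep1, the phosphatase that dephosphorylates lipins, did not pass (0.04, SE 0.02), and its partner Cnep1r1 fell by 0.06 (SE 0.03, adjusted p = 0.0231). Ppargc1a and Ppargc1b had been entered in the list under another spelling, so the counts and the median above leave them out. Read separately, Ppargc1a rose by 1.73 (SE 0.12, from 11.8 to 41.8 CPM) and Ppargc1b by 1.00 (SE 0.08, from 7.23 to 14.4 CPM). Both rises were larger than that of Creb3l3, and with them more listed regulators rose than fell. All 10 targets shared by PPARalpha and PGC-1alpha rose, against 29.5% of all genes, with a median of 1.36. They were led by Cyp4a14, an omega-hydroxylase of fatty acids, at 4.91 (SE 0.19), and by Fgf21. Their list was chosen with earlier results of these data known and holds Fgf21, which also served to check the treatment labels. The count of 10 is therefore a description and not a test. Lpin1 and Lpin2 lay above that median, and a link between the lipins and these targets was not tested.

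**Figure D5:**
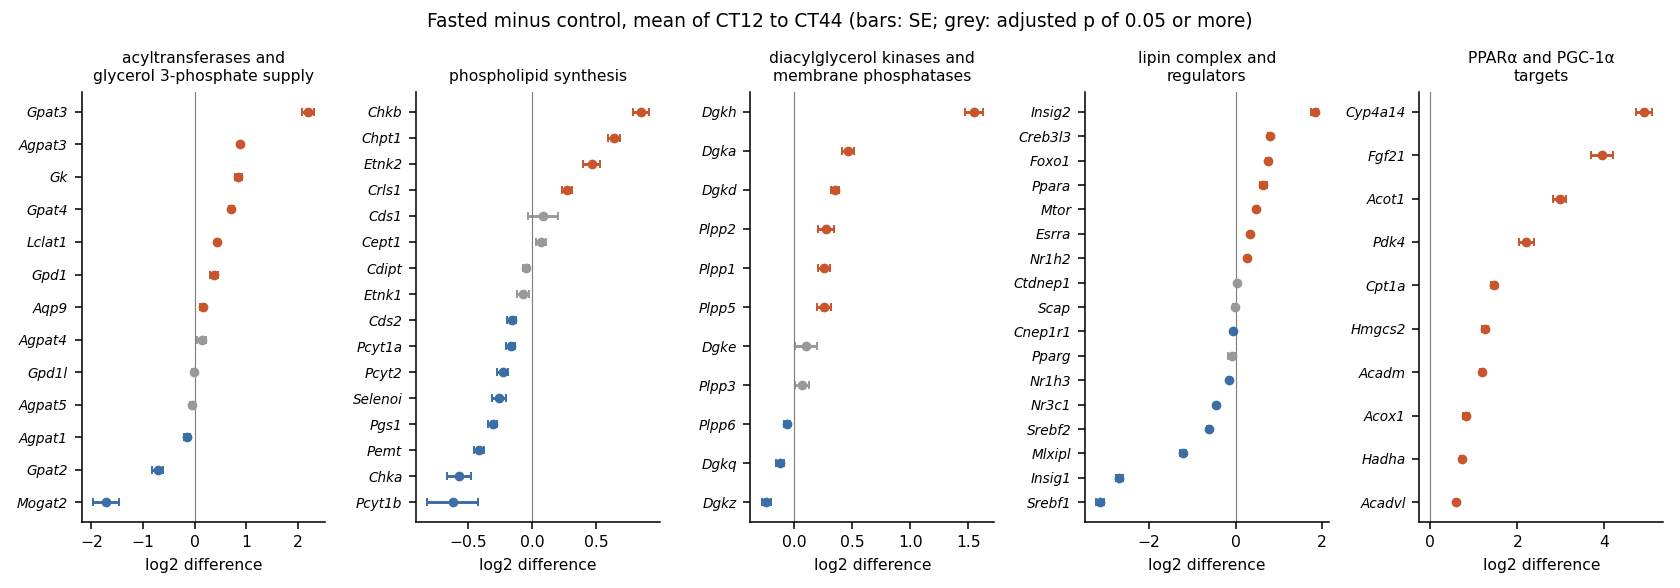
Each panel is a gene list, with 1 row per gene and fasted minus control on the log2 scale (mean of CT12 to CT44, bars for SE) on the horizontal axis; grey points did not pass. The PPARalpha and PGC-1alpha targets all lie to the right of 0, while the regulators run from -3.13 for Srebf1 to 1.82 for Insig2.

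Between genes, levels per kilobase of merged exon set Dgat2 first in both groups, at a median of 153 CPM per kb in control and 110 in fasted livers. In control livers Agpat2 (106), Gpam (54.8), Lpin2 (21.1), Lpin1 (8.78), Dgat1 (5.86), Lpin3 (1.502) and Mogat1 (0.205) followed. The ranges of neighbours in this order overlapped down to Dgat1, and Dgat1, Lpin3 and Mogat1 did not overlap with each other. In fasted livers the order was Dgat2, Agpat2 (81.0), Lpin1 (76.5), Lpin2 (64.7), Gpam (42.3), Dgat1 (9.92), Lpin3 (1.85) and Mogat1 (0.489). This order pools times at which the lipins differ widely and does not hold at each of them. At fasted CT28 the group means were 109 CPM for Lpin1 over 9665 bases of merged exon, 324 CPM for Lpin2 over 12233 bases and 239 CPM for Gpam over 6664 bases, which puts both lipins below Gpam per kilobase of merged exon. The merged length of Lpin2 counts stretches found only in non-coding transcripts, including stretches of 1192, 760, 698 and 674 bases. A shorter length would raise its level per kilobase. It could place Lpin2 above Lpin1 in fasted livers and above Gpam at fasted CT28. The order under other lengths was not tested.

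Over the 20 means of group and time, each gene's course was compared with 11576 genes by Pearson's r, as a description in which all points share the same libraries. The 3 most like Lpin1 were Cebpb (0.97), a transcription factor of the gluconeogenic response, Nrg4 (0.96) and Mknk2 (0.95). For Lpin2 they were Nfkbia (0.96), 1810055G02Rik (0.96) and Pim3 (0.95), for Dgat1 Ogdh, Mat1a and Wasl (0.98 each), and for Dgat2 Fdx1, Hnmt and Dhrs7 (0.97 each). Those of Agpat2 were Celsr1 (0.92), Mif4gd (0.92) and Mocs2 (0.91), those of Mogat1 Cyp2c39, Plbd1 and Pcx (0.93 each), and those of Lpin3 Dmac2l (0.95), Wwp2 (0.94) and Stk11ip (0.94). Gpam had the least close neighbours, Slc25a44 (0.83), Mrps36 (0.78) and Abhd5 (0.76), the last of which coactivates the triglyceride lipase ATGL. Within the 8 genes the closest pair was Lpin1 with Lpin2 (0.93), followed by Dgat1 with Mogat1 (0.89), and the most opposed were Agpat2 with Lpin3 (-0.70) and Dgat1 with Dgat2 (-0.69).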

How the data were processed

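Liver RNA of 80 mice was sequenced as poly(A)-selected, stranded libraries. The authors deposited a table of raw gene counts and a table of raw exon-bin counts, both with 1 column per library. Trimmomatic, HISAT2, DESeq2 and the build GRCm39 are named in the submitters' processing notes, and the counting tool and all versions are not given in the sources used here. Sex and treatment were taken from sample titles, since other labels disagreed with them. Nothing was left out, and among 120 pairs of libraries from the same group none agreed within sampling noise.

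Gene counts were tested in edgeR 4.0.16 (R 4.3.3) with TMM scaling, its default low-count filter (minimum count 10), quasi-likelihood fits of the 40 means of treatment, time and sex, and Benjamini-Hochberg adjustment over all tested genes at 0.05. CPM use TMM-scaled library sizes. Rhythms were fitted with a 24 h cosine and sine plus sex, and in fasted livers a linear trend from CT12. Exon bins were tested with edgeR's diffSpliceDGE (Simes). Between 8.28 and 25.9% of exon counts per column stood in rows that name no bin, and these rows were left out. Replicates are separate mice, and the SE and SD values include the spread between mice. Each SE was derived from the test, as the size of the log2 difference divided by the square root of the quasi-likelihood F. The floor given for Mogat1 covers counting error only. The members and lists were chosen with earlier results of these data known. Named genes were the 8 members, the 3 genes of most like course for each, the largest 2 called rises and falls of each list and the 2 exon bins with the smallest p per called member. Gpat4, Agpat1, Agpat4, Agpat5, Mlxipl, Ctdnep1, Cnep1r1, Ppargc1a, Ppargc1b and the Gpam bins 33 and 35 were added after their values were seen. Alternatives used limma 3.58.1 (voom), DESeq2 1.42.0 size factors, other filters and models, and left out replicates. The scripts were tested on simulated data. Sequences came from RefSeq (GRCm38.p6), where 6 of the 8 members had a promoter entry.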

Additional observations from a re-analysis of the deposited data

Results flagged for a closer look

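In 9 of 160 groups of 4 libraries, 1 library stood apart by Dixon's test, a share near the 1 in 20 that chance gives. Of these, 3 were the fasted CT40 female 2 library, with 45.3 CPM of Agpat2 (others 153 to 176), 210 CPM of Dgat2 (others 356 to 370) and 0.405 CPM of Mogat1 (others 1.37 to 1.68). That library had a total of 26820667 counts and 0.0597% ribosomal RNA. Gpam was low in control CT44 female 1, at 225 CPM (others 362 to 393), and high in fasted CT24 female 1, at 298 CPM (others 218 to 230). Agpat2 was high in control CT12 female 2, at 206 CPM (others 190 to 192), and low in control CT40 male 1, at 238 CPM (others 263 to 268). Dgat1 was high in control CT16 male 1, at 23.7 CPM (others 19.1 to 19.7), and Lpin3 in fasted CT44 female 1, at 13.8 CPM (others 6.02 to 6.82).

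The fasting effect differed between females and males, as log2 female minus male, by -0.47 for Dgat2, 0.43 for Lpin2 and 0.19 for Dgat1, and each of these calls was lost without male replicate 1 or 2. It differed across the 9 times for Lpin2 (edgeR adjusted p = 7.33e-10), Lpin1 (1.17e-06), Dgat1 (4.32e-06), Agpat2 (0.00278) and Dgat2 (0.0195), the last 2 of which were lost without male replicate 1 or 2. The 24 h rhythm differed between fasted and control livers for Lpin2 (edgeR adjusted p = 9.77e-09), Lpin1 (2.11e-07), Agpat2 (0.0242) and Dgat1 (0.0337), the last 2 of which were lost whichever replicate was left out.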

How the results depend on the processing

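Of 344 alternative values for the counts and mean effects, 322 kept their direction and their side of the threshold or stayed within 1.5 times, 5 lost their call, 17 counts moved and 0 reversed. When a change of at least 1.5 times was required, 4 of the 8 mean effects kept their call, and Agpat2 (-0.27), Dgat2 (-0.50), Gpam (-0.49) and Lpin3 (0.30) lost it. In males alone the mean effect on Lpin3 was 0.13 and did not pass. Without a low-count filter 8 genes changed across times, without the linear trend 2 rhythms differed, with at least 10 counts in every library 1 gene passed for exon usage, and without the fasted CT40 female 2 library 1 sex difference of the effect passed. Leaving out 1 replicate at a time gave 8 to 8 mean effects, 25 to 41 calls over genes and times, 3 to 6 changes across times, 0 to 3 sex differences of the effect, 2 to 4 control sex differences, 5 to 6 control rhythms, 3 to 5 fasted rhythms, 2 to 2 rhythm differences and 2 to 2 exon calls. The cause of these changes was not tested.

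Some values near 0, called in neither setting, changed sign. These were the Agpat2 sex difference (0.0472 without the fasted CT40 female 2 library), Dgat2 (-0.0154) and Lpin3 (-0.0542) at CT8 without control CT8 female 2, Lpin1 at CT8 (0.0314 with limma-voom and 0.0258 without sex) and Lpin3 at CT8 (-0.00361 with limma-voom). Leaving out replicates gave ranges across 0 for Agpat2 at CT28 (-0.14 to 0.0433) and its sex difference (-0.17 to 0.0285), Dgat2 at CT8 (-0.0733 to 0.41), Gpam at CT8 (-0.23 to 0.62) and CT44 (-0.26 to 0.0716), Mogat1 at CT8 (-0.22 to 0.95), Lpin1 at CT8 (-0.27 to 0.32), CT12 (-0.35 to 0.80), CT28 (-0.10 to 0.60) and CT36 (-0.43 to 0.87), and Lpin3 at CT8 (-0.11 to 0.18), CT12 (-0.0263 to 0.165), CT16 (-0.37 to 0.13), CT20 (-0.0144 to 0.27) and CT24 (-0.0760 to 0.23).

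Replicate numbers did not pair the mice, since 1 of 18 correlations between same-numbered control and fasted libraries was over 0.1 (range -0.06 to 0.25). With the replicate block the Lpin2 sex difference of the effect lost its call (adjusted p = 0.092), and the control sex difference could not be fitted. Depth limits Mogat1 most, at 0 to 103 counts a library after CT8, and the exon bins of Lpin2 and bin 29 of Gpam.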
